A study of Mus musculus with 6 samples.

Results

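The genes described are 9 enzymes of heme synthesis and heme breakdown, Alas1, Alas2, Alad, Uros, Urod, Cpox, Ppox, Fech and Hmox1, taken by gene name from a table of 55401 genes. Their RNA was measured by total RNA sequencing in leukaemia cells from the bone marrow of 6 mice, 1 library per mouse, each a secondary transplant recipient in a HoxA9/Meis1 leukaemia. 3 libraries (Lym, mice 62, 63 and 87) came from recipients of lymphoid leukaemic stem cells and hold cells labelled lymphoid, Lym+. The other 3 (Lin-, mice 56, 57 and 91) came from recipients of Lin- leukaemic stem cells and hold Lin-cKit+ progenitor cells. Both groups share the HoxA9/Meis1 leukaemia, so neither is a healthy control. Strain, age, promoter of the leukaemia genes and donor of each mouse are not given in the sources used here, and mice that share a donor would not be independent.

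Heme is an iron-holding ring that cells build for cytochromes, catalase, peroxidases and globins. The path starts in mitochondria, passes through the cytosol and returns to mitochondria, where iron is put into the finished ring. Its first step has a pair of isozymes, Alas1, which most cells use and which heme itself holds down, and Alas2, which red cell precursors use. In white blood cells of the myeloid line, heme is needed for myeloperoxidase and for the oxidase that makes superoxide, and heme oxygenase 1 breaks heme down under stress and in macrophages.

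Libraries held 18537700 to 22634286 reads assigned to genes. Genes with a read numbered 24027 and 23836 in Lym mice 63 and 87, 19427 in Lym mouse 62 and 19473 to 20358 in Lin-. The part of this difference in the low values was not tested. Where 3 values are given for a group, they stand in the order of mice 62, 63 and 87 for Lym and 56, 57 and 91 for Lin-. Values are normalized counts (reads divided by 1 size factor per library) unless another scale is named, and 3 reads in a library equal a normalized count of 2.64 to 3.36. Differences are Lym minus Lin- on log2(normalized count + 2), with standard errors (SE) and Benjamini-Hochberg adjusted p-values from limma over the 14273 genes that reached a normalized count of 10 in 3 libraries or more. No gene of the 14273 passed an adjusted p of 0.05 (0%), where 1459 (10.2%) had an unadjusted p under 0.05. Without the Lym library of mouse 87, 1366 genes (9.57%) passed, and for the heme and pathway genes named below whose call begins without it both values are given. Early lymphoid and B lineage markers had a summed level (CPM, reads scaled to library depth) of 1467, 1514 and 908 in Lym and 830 to 889 in the Lin- mice. Of these markers Pax5, the B lineage commitment factor, was at a normalized count of at most 0.953 and Cd79a, a B-cell receptor chain, at most 4.48, while Il7r, the receptor for interleukin 7, was at 424, 82.8 and 14.3 in Lym and 2.65 to 4.13 in Lin-. Of the 15 early lymphoid genes 6 were tested and 5 were higher in Lym (median log2 difference 1.39). Groups were apart in 3, all higher (8.49% of all genes tested were apart and higher). None passed in limma, edgeR or limma-voom. In DESeq2 5 passed (1.39% of all genes it tested), and 5 passed in limma without Lym mouse 87 (9.57% of all genes). Il7r was named after its values were seen. Kit was at 3158 to 18902 in Lym and 3420 to 6066 in Lin-. The RNA input was 1 ng for Lym mouse 62 and 2 ng for the other libraries.

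In every library Alas1 was the most abundant heme gene per length and Alas2 was at or near 0. Per kilobase of exon, scaled to library depth (RPKM, with the deposited exon length), the level of Alas1 was 42.5, 51.3 and 67.1 in Lym and 50.2, 69.7 and 48.4 in Lin-. That placed it between the 93.6th and the 96.7th percentile of the 14273 genes. Urod followed at 10.4 to 15.7 RPKM and Alad at 8.53 to 12.3, so Alas1 stood 3.19 to 5.79 times above Urod in the same library. Ppox (2.20 to 4.48), Cpox (2.28 to 5.85), Fech (3.11 to 3.64) and Hmox1 (1.04 to 4.15) had overlapping RPKM ranges, with means of 3.53, 3.49, 3.36 and 2.77. Uros had the lowest mean of the 8 genes that passed the filter, at 1.48 to 2.32 RPKM, or the 26.7th to the 34.4th percentile. The deposited length is the union of all annotated exons, 13838 bases for Fech and 1871 for Alad. With the longest coding transcript instead (6571 and 1247 bases), the order of the first 6 genes did not change, and Uros (mean 3.75 RPKM) and Hmox1 (3.09) changed places.

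**Figure D1:**
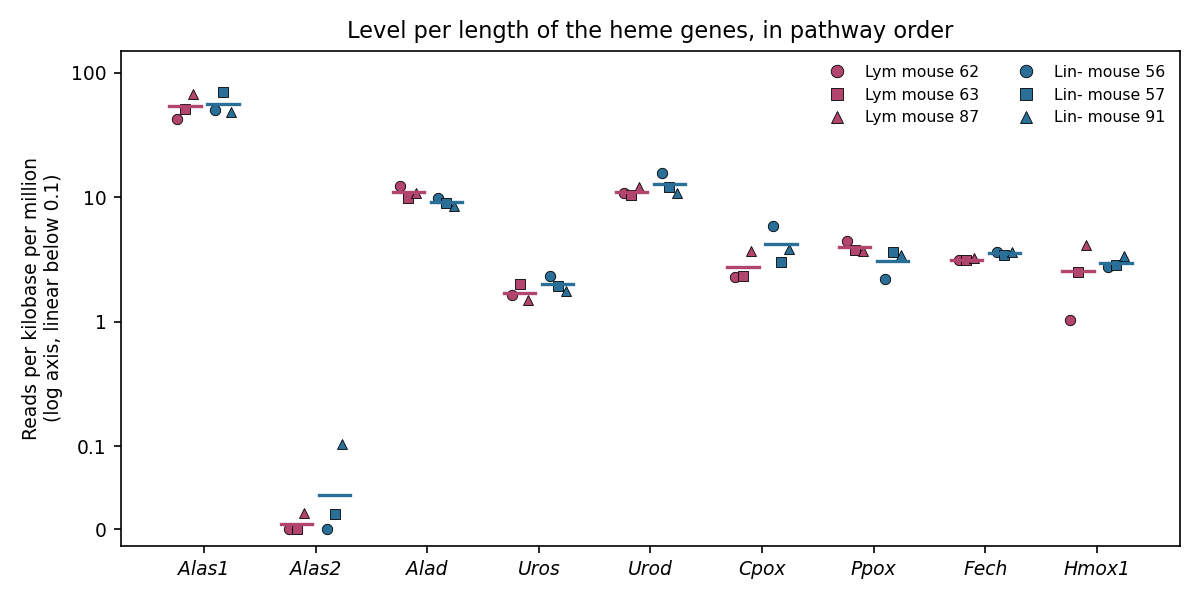
Reads per kilobase of exon scaled to library depth (RPKM, vertical axis, log scale, linear below 0.1) for the 9 heme genes in pathway order (horizontal axis). Each point is 1 mouse, with Lym in magenta and Lin- in blue, and a line marks the mean of 3. Alas1 lies between 42.5 and 69.7 in all 6 libraries, and Alas2 between 0 and 0.104.

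Alas2, the erythroid isozyme (chromosome X, 150547375 to 150570638, plus strand, GRCm38), was counted 0, 0 and 1 times in Lym and 0, 1 and 5 times in Lin-. Only Lin- mouse 91 was above the floor of 3 reads. Alas2 did not reach the filter and was not tested. Over all 6 libraries Alas1 had 42287 reads and Alas2 had 7, a ratio per exon length of 2351 (95% exact Poisson interval of the 7 reads, 1141 to 5848, counting error only). Apex2, at 243 to 375, runs on the opposite strand over 311 of the exon bases of Alas2 (12.9%). Within those bases, reads of the 2 genes cannot be told apart unless the counting used the strand. Of 23 erythroid markers in the table, 9 had no read in any library, among them the globin genes Hba-a1, Hba-a2, Hbb-bs and Hbb-bt and the erythropoietin receptor gene Epor. Klf1, a master factor of red cells, had 1 to 19 reads per library, and Gata1 had 18 reads in Lym mouse 62 and none in the others. The summed list was at 122 to 257 CPM in Lym and 100.9 to 149.7 CPM in Lin-, most of it from Nfe2, which myeloid cells also use (normalized count 1908 to 4552), and Tmcc2 (152 to 423). Groups were apart in 0 of the 2 genes of the list that were tested, where 8.49% of all genes tested were apart and higher. Some of the 21 genes below the filter, named after their values were seen, had groups apart with higher Lym values. Among them were Gfi1b, a factor of erythroid and megakaryocyte precursors, at 322, 128 and 5.72 in Lym and 0.882 to 4.40 in Lin-, and Tfr2, a transferrin receptor, at 67.3, 32.5 and 7.62 in Lym and 0 to 6.19 in Lin-. In both, Lym mouse 87 came close to the highest Lin- value. The mean of Klf1 went the other way, at 4.31 in Lym and 7.24 in Lin-. In bulk libraries such as these, fewer cells of a type and less RNA per cell cannot be told apart.

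Because the isozymes stood so far apart, their promoters are shown, from 250 bases before to 50 after the start site (RefSeq, build GRCm38.p6). The Alas1 window is chr9:106247681-106247980 on the minus strand and the Alas2 window is chrX:150547167-150547466 on the plus strand. Capitals mark matches, on either strand, to the consensus palindrome of nuclear respiratory factor 1 (in Alas1) and to AGATAA or TGATAA, letters that GATA factors bind, with TTATCT being AGATAA on the other strand.
Alas1: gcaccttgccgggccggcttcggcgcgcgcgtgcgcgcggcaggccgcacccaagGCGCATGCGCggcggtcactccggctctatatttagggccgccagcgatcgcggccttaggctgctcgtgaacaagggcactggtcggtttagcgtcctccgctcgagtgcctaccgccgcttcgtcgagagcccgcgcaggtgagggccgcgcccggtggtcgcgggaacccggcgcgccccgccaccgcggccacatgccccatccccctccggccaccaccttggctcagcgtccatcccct
Alas2: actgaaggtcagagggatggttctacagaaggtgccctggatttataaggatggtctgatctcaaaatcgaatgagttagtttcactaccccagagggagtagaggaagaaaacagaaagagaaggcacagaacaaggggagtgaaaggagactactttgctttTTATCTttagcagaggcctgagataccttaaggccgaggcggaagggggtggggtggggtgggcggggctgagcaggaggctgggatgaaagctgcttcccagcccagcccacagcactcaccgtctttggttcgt
In Alas1 the palindrome began 195 bases before the start site, and a further Alas1 window that overlaps this one held the same site. It occurred in 0.971% of the 32851 promoter windows of this length. In Alas2 the AGATAA match began 86 bases before the start site, and 11.2% of windows held AGATAA. The Alas1 window was richer in G and C, at 73.3% against 52.3%. These matches describe letters only, and no binding was measured.

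Neither Alas1 nor any other member differed between Lym and Lin- past the threshold. The counts were 0 of 8 in limma, edgeR, limma-voom and DESeq2 (which called 1.39% of the genes it tested), and at an unadjusted p under 0.05 they were 0 in the first 3 and 1 in DESeq2 (Cpox). 2 members were higher and 6 lower in Lym by sign, with a median log2 difference of -0.15 against -0.01 for all genes tested. Groups did not overlap in 3 of the 8, against 15.6% of all genes tested. Alad and Ppox were the 2 with higher Lym values (8.49% of all genes) and Fech the 1 with lower (7.08%). Alas1, the rate-limiting enzyme of most tissues (chromosome 9, 106233455 to 106248654, minus strand), was at 5519, 6567 and 8427 in Lym and 6125, 8574 and 6154 in Lin-. The groups overlapped, with the highest values in Lym mouse 87 and Lin- mouse 57 and the lowest in Lym mouse 62. Its log2 difference was -0.03 ± 0.19 (SE, limma adjusted p = 0.969), with a 95% interval of -0.46 to 0.41, and a difference anywhere within it remains possible. Its sign turned without Lym mouse 62 (0.12) and without Lin- mouse 57 (0.13).

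**Figure D2:**
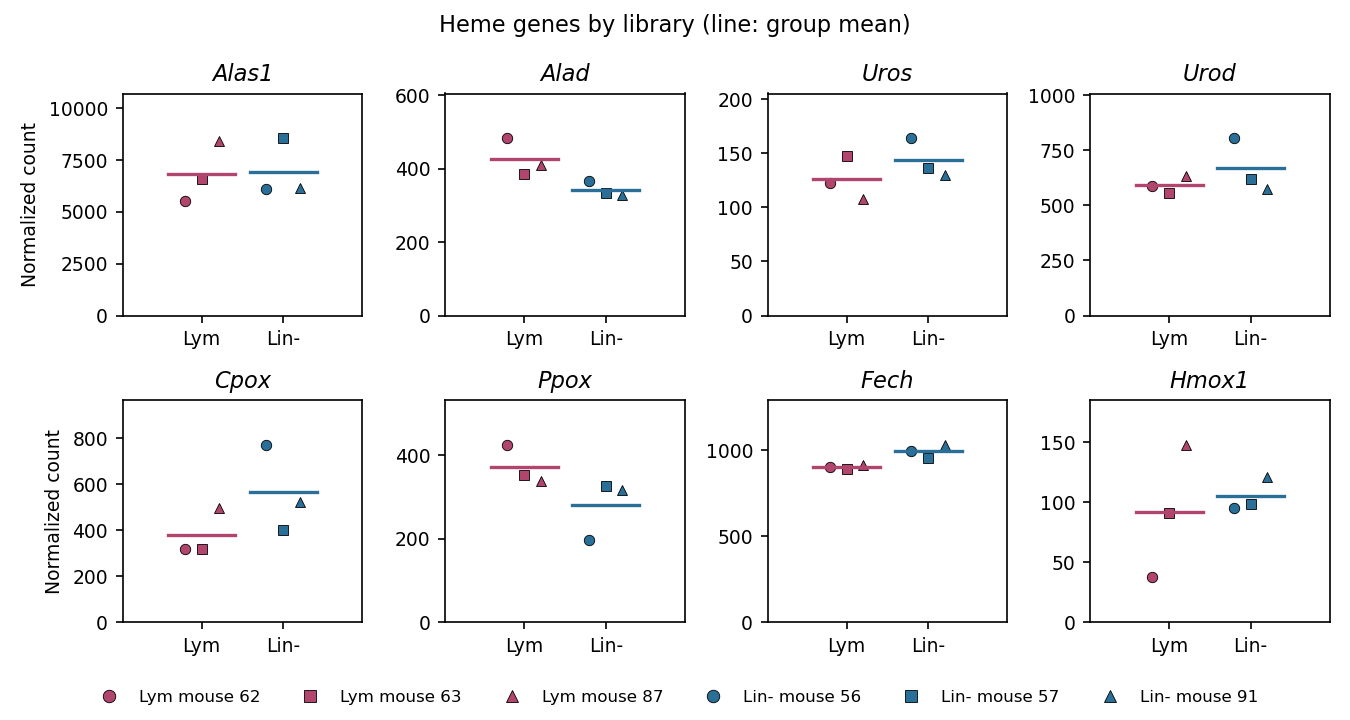
Normalized count (vertical axes, each from 0) of 8 heme genes in the 3 Lym (magenta) and 3 Lin- (blue) libraries, 1 point per mouse, with a line at the group mean. The Alad, Ppox and Fech panels show groups that do not overlap, and Hmox1 shows the widest spread, from 38.1 to 148 among Lym mice.

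Alad and Ppox had higher values in every Lym mouse than in any Lin- mouse. Alad, the cytosolic enzyme that joins aminolevulinic acid into porphobilinogen (chromosome 4, 62509169 to 62519918, minus strand), was at 483, 385 and 409 in Lym and 365, 334 and 329 in Lin-. The gap between the lowest Lym and the highest Lin- mouse was small beside the spread within Lym. The log2 difference was 0.31 ± 0.17 (limma adjusted p = 0.554, 95% interval -0.09 to 0.70). Ppox, the mitochondrial enzyme that oxidizes protoporphyrinogen (chromosome 1, 171275990 to 171281186, minus strand), was at 425, 352 and 339 in Lym and 197, 327 and 317 in Lin-. Lin- mouse 56 stood far below the other 5 mice, and the remaining Lin- mice came close to Lym mouse 87. The log2 difference was 0.44 ± 0.24 (limma adjusted p = 0.548, 95% interval -0.12 to 0.99), and without Lin- mouse 56 it was 0.20. Ppox shares 791 exon bases (17.5%) with B4galt3 on the opposite strand, which was at 290 to 339 in Lym and 231 to 292 in Lin-. Whether counting used the strand is not given in the sources used here, so its part in the Ppox values was not tested. Smaller overlaps join Cpox with Gpr15 (204 bases, Gpr15 at 0 to 10.3) and Alas1 with 4930500F10Rik (465 bases, at 7.94 to 29.9).

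Cpox and Fech had lower mean values in Lym. Cpox, which makes protoporphyrinogen from coproporphyrinogen (chromosome 16, 58670292 to 58717636, plus strand), was at 319, 319 and 497 in Lym and 771, 399.5 and 522 in Lin-. Lym mouse 87 lay within the Lin- range, and Lin- mouse 56 stood well above the other 5. The log2 difference was -0.55 ± 0.28 (limma adjusted p = 0.524, 95% interval -1.20 to 0.09). Without Lym mouse 87 the groups did not overlap and the difference was -0.77 ± 0.26 (limma adjusted p = 0.1003), and without Lin- mouse 56 it was -0.30. Fech, the ferrochelatase that inserts iron (chromosome 18, 64452914 to 64490251, minus strand), was at 903, 892 and 915 in Lym and 995, 952 and 1031 in Lin-. It was the steadiest of the 9 genes, with a coefficient of variation of 1.27% in Lym and 3.99% in Lin-. The groups did not overlap, but the log2 difference was only -0.14 ± 0.12 (limma adjusted p = 0.703, 95% interval -0.42 to 0.14).

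Urod and Uros showed overlapping groups. Urod, which removes carboxyl groups from uroporphyrinogen (chromosome 4, 116989965 to 116994413, minus strand), was at 587, 557 and 635 in Lym and 805, 621 and 576 in Lin-, with Lin- mouse 56 above the rest. The log2 difference of Urod was -0.16 ± 0.17 (limma adjusted p = 0.756), and without Lin- mouse 56 it was -0.01. Uros, which closes the porphyrin ring (chromosome 7, 133686243 to 133710072, minus strand), was at 122, 148 and 108 in Lym and 164, 136 and 130 in Lin-. That of Uros was -0.19 ± 0.26 (limma adjusted p = 0.806). For Uros it was -0.09 without Lym mouse 87, -0.09 without Lin- mouse 56 and -0.02 with library weights, which count libraries that fit poorly for less.

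**Figure D3:**
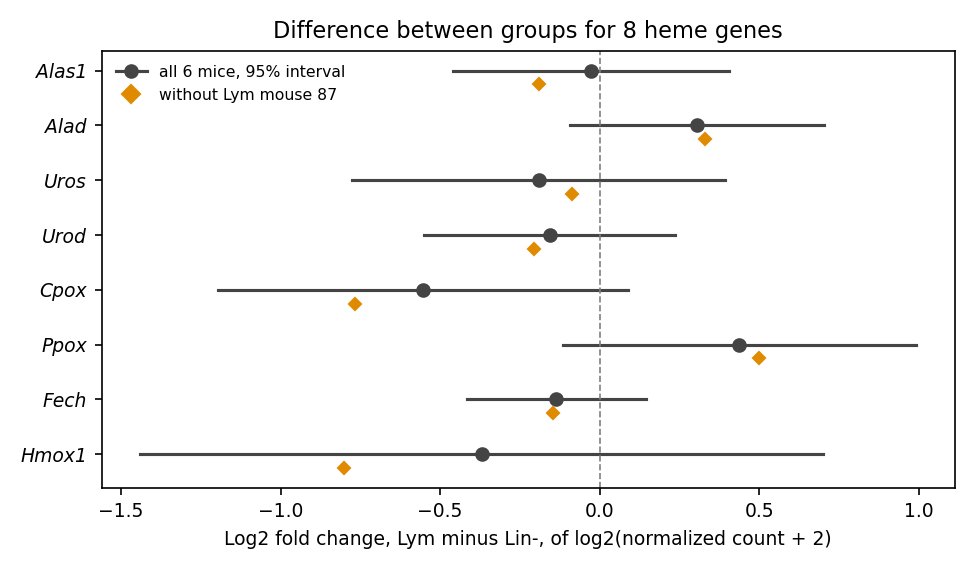
Log2 difference, Lym minus Lin- (horizontal axis), for the 8 heme genes that passed the filter. Circles and bars give the limma estimate with its 95% interval over all 6 mice, and diamonds give the estimate without Lym mouse 87. All 8 intervals include 0, with Cpox lowest at -0.55 and Ppox highest at 0.44.

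The enzymes differed in which mouse was high and which was low. Lin- mouse 56 held the highest Cpox, Urod and Uros values and the lowest Ppox value. The ratio of Ppox to Cpox counts within a library was 1.34, 1.11 and 0.682 in Lym and 0.255, 0.817 and 0.607 in Lin-. This ratio needs no scaling between libraries, and Lym mouse 87 lay inside the Lin- range for it. Over the 6 libraries the log2 values of Cpox and Ppox had a Pearson correlation of -0.90, and Cpox and Urod of 0.83. Both are descriptions over 6 points that share mouse 56 and the groups. Alas1 made up 55.2% to 67.8% of the summed RPKM of the 8 synthesis genes, with overlapping groups (55.2% to 65.8% in Lym, 55.9% to 67.8% in Lin-).

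Cpox and Ppox were the members with the lowest and the highest log2 difference, so their promoters are shown as well. The Cpox window is chr16:58669958-58670257 on the plus strand and the Ppox window is chr1:171281137-171281436 on the minus strand, with the same span, build and source as above. Capitals mark AGATAA or TGATAA and, in Ppox, CCAAT, the letters bound by nuclear factor Y, each on either strand (ATTGG is CCAAT on the other strand).
Cpox: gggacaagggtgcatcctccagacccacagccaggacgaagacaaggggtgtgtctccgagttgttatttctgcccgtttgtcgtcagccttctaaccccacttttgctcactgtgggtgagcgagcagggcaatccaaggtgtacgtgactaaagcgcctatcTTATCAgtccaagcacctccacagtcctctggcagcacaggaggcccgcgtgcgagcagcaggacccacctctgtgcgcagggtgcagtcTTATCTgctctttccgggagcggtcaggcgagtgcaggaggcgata
Ppox: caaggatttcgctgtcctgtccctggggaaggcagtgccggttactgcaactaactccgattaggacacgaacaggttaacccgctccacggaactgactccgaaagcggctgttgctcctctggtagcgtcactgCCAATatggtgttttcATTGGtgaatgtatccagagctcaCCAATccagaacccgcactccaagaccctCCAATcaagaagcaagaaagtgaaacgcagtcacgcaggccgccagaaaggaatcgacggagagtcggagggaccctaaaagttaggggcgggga
Cpox held TGATAA from 86 bases before the start site and AGATAA from base 5 after it, with no CCAAT. Ppox held 4 CCAAT matches, from 114 to 45 bases before the start site, and neither GATA word. CCAAT was in 37.4% and TGATAA in 9.05% of all windows. Promoter entries were found for 7 of the 9 members, with 10 windows in all. The other motifs searched on both strands were CACGTG (7.15% of all windows), TGACNNNGC (12.4%), GGGCGG (35.7%) and the Maf recognition element (0.155%), and no 2 different motifs overlapped. CACGTG was in both Alad windows, the Urod window and 1 of the Uros windows. TGACNNNGC and the Maf recognition element are letters of the sites bound by Nrf2 and Bach1 with small Maf proteins. They were in none of the 10 windows, which do not include Hmox1.

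Hmox1, the inducible enzyme that opens the heme ring and frees iron (chromosome 8, 75093621 to 75100589, plus strand), was low and the most variable tested member. It was at 38.1, 90.6 and 148 in Lym and 95.3, 98.6 and 121 in Lin-. The Lym mice held both the lowest and the highest value, a range of 3.87 times, and the Lin- mice lay between them. The log2 difference was -0.37 ± 0.47 (limma adjusted p = 0.793, 95% interval -1.44 to 0.70), 0.15 without Lym mouse 62 and -0.80 ± 0.42 without Lym mouse 87 (limma adjusted p = 0.273). The lowest value was in the library made from 1 ng of RNA, and the part of the input was not tested. The summed macrophage markers gave CPM of 259, 344 and 285 in Lym and 392, 336 and 356 in Lin-. Of these 16 markers 5 were tested, C1qa and Timd4 had no read, Vcam1 was at most 2.64, and Cd68 (2576 to 4266) and Csf1r (1375 to 2869) were the most abundant. Their part in the Hmox1 values was not tested.

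The constitutive isozyme Hmox2 stood far above Hmox1 in every library. Per length Hmox2 was at 24.1, 22.9 and 28.7 RPKM in Lym and 26.4, 25.03 and 27.7 in Lin-, 6.91 to 23.2 times the Hmox1 level of the same library. Its log2 difference was -0.03 ± 0.14 (limma adjusted p = 0.953), and it was singled out after its values were seen. Biliverdin reductase A (Blvra), the next enzyme of breakdown, was at 244, 184 and 273 in Lym and 315, 399 and 371 in Lin-. Every Lin- mouse was above every Lym mouse, with a log2 difference of -0.64 ± 0.22 (limma adjusted p = 0.447). Of the 4 genes of this list (with Blvrb and the electron donor Por), 3 were lower in Lym by sign, with a median of -0.31, and none passed in limma, edgeR, limma-voom or DESeq2.

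Genes around the pathway were read from 6 lists of 87 genes, of which 73 were tested. None passed in limma, edgeR or limma-voom. In DESeq2 2 passed (1.39% of all genes it tested), and 12 passed in limma without Lym mouse 87 (9.57% of all genes). In limma 13 of the 73 had an unadjusted p under 0.05, against 10.2% of all genes tested. Groups did not overlap in 12 of the 73, close to the share of 15.6% of all genes. For the signs given below, 6953 of all 14273 genes tested were higher and 7320 lower in Lym, with a median of -0.01. Of 18 mitochondrial partners and transporters, 13 were lower in Lym (median -0.07). Among those with groups apart were Tmem14c, a carrier of protoporphyrinogen, at 640, 803 and 956 in Lym against 1254, 1068 and 1009 for Lin-, plus Abcb6 at 27.6 to 49.2 against 55.7 to 67.0. The log2 difference of Tmem14c was -0.49 ± 0.18 (limma adjusted p = 0.452) and -0.62 ± 0.16 without Lym mouse 87 (limma adjusted p = 0.0441). Of 12 tested genes of iron-sulfur cluster assembly, 10 were lower in Lym (median -0.11), and the scaffold gene Iscu was at 367, 422 and 503 against 620, 545 and 592.

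Of 13 tested genes that handle iron, 9 were lower in Lym (median -0.03). The ferritin light chain Ftl1, an iron store, was at 5447, 5392 and 6796 in Lym and 7577, 6878 and 8311 in Lin-. Lym mouse 87 came close to the lowest Lin- mouse, and the log2 difference was -0.37 ± 0.13 (limma adjusted p = 0.451), or -0.48 ± 0.11 without mouse 87 (limma adjusted p = 0.0320). Tfrc, the transferrin receptor that takes iron up, was at 1992, 1908 and 1316 against 1187, 1494 and 992. The log2 difference of Tfrc was 0.50 ± 0.21 (limma adjusted p = 0.467). Without Lym mouse 87 it was 0.69 ± 0.17 (limma adjusted p = 0.0380). Tfrc was named after its values were seen, since its groups overlap.

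Of 12 tested genes of the Bach1 and Nrf2 axis, 9 were higher in Lym by sign (median 0.04). Some of these had almost no difference, such as Txnrd1 (0.002) and Gclc (0.006). Bach1 is the repressor that heme removes from the Hmox1 gene, and Nrf2 (Nfe2l2) activates that gene. Bach2, the lymphoid relative of Bach1, was at 189.5, 214 and 98.1 in Lym and 43.2, 35.2 and 29.9 in Lin-, a log2 difference of 2.09 ± 0.38 (limma adjusted p = 0.406). It passed in DESeq2 (2.21 ± 0.41, DESeq2 adjusted p = 6.8e-05) and in limma without Lym mouse 87 (2.43 ± 0.36, limma adjusted p = 0.00688). Bach1, named after its values were seen, was at 2980, 2427 and 1583 against 1880, 1746 and 1551, with Lym mouse 87 inside the Lin- range. Its log2 difference was 0.39 ± 0.22 (limma adjusted p = 0.551), or 0.64 ± 0.14 without that mouse (limma adjusted p = 0.0238).

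Of 14 tested genes for proteins that hold or sense heme, 12 were lower in Lym (median -0.25), and 5 had groups apart, all lower (7.08% of all genes tested were apart and lower). Ptgs1, a cyclooxygenase, was at 34.8, 44.8 and 183 in Lym and 575, 824 and 400 in Lin-. Its log2 difference was -3.08 ± 0.58 (limma adjusted p = 0.406). It passed in DESeq2 (-2.77 ± 0.78, DESeq2 adjusted p = 0.0335) and in limma without Lym mouse 87 (-3.80 ± 0.33, limma adjusted p = 0.000845). Cybb, the heme-holding subunit of the phagocyte oxidase, was at 216, 862 and 764 against 1649.7, 2828 and 2236. Its log2 difference was -2.06 ± 0.48 (limma adjusted p = 0.420), and -2.33 ± 0.47 without Lym mouse 87 (limma adjusted p = 0.0190). Cyc1, cytochrome c1 of the respiratory chain, was at 669.5, 617 and 1038 against 1319, 1091 and 1248. The difference for Cyc1 was -0.69 ± 0.21 (limma adjusted p = 0.423), or -0.92 ± 0.14 without Lym mouse 87 (limma adjusted p = 0.00810). Tbxas1, thromboxane synthase, was at 212, 237 and 371 against 383, 465 and 522. For Tbxas1 the difference was -0.77 ± 0.25 (limma adjusted p = 0.441), or -1.01 ± 0.21 without that library (limma adjusted p = 0.0211). Mpo, myeloperoxidase, was at 55058, 48212 and 48014 in Lym and 57600, 118583 and 61987 in Lin-, with Lin- mouse 57 far above the other mice. Neutrophil and monocyte markers summed to 3264 to 3668 CPM in Lym and 4132 to 7567 CPM in Lin-, most of it from Mpo itself. Of the 8 such markers tested, 6 were lower and 2 higher in Lym by sign. Their part in the values of these genes was not tested.

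**Figure D4:**
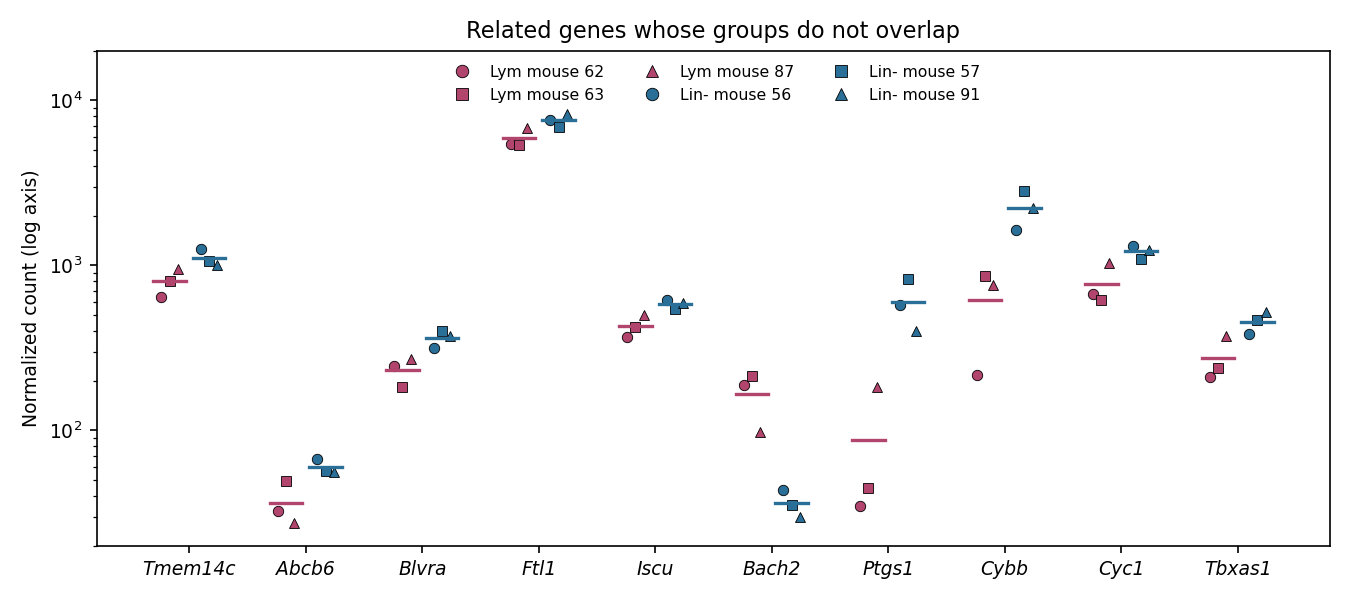
Normalized count (vertical axis, log scale) of 10 genes around the heme pathway that the naming rule took, each chosen because its groups do not overlap. Points are mice, with Lym in magenta and Lin- in blue, and lines are group means. Bach2 is the gene with higher Lym values (98.1 to 214 against 29.9 to 43.2), and Ptgs1 has the widest gap the other way (34.8 to 183 against 400 to 824).

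The 3 genes whose log2 values were most like those of Cpox over the 6 libraries were Eif3m, Ripk3 and Abce1 (Pearson 0.996, 0.996 and 0.995). Those most like Ppox were the noncoding or unclassified Gm36266, Gm38257 and 5830454E08Rik (0.994, 0.992 and 0.988), and those most like Hmox1 were Tbcb, Ehbp1 and Wdr70 (0.996, 0.995 and 0.993). These genes are the closest of 14273 over 6 points that share libraries and groups, and the values are a description only. In the authors' deposited table, 0.32% of 31604 genes had an adjusted p under 0.05 and none of the 9 heme genes did. There the adjusted p was 0.982 for Alas1 and 0.964 for each of the other 8. The log2 fold change furthest from 0 was that of Cpox, -0.46 with the sign turned to Lym minus Lin-. Alas2, with few reads, was at -0.07 there. The DESeq2 fit run here gave -0.58 for Cpox, so the deposited fold changes are not on the same scale as the differences above.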

How the data were processed

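Libraries came from 6 mice, 3 Lym and 3 Lin-, grouped by the labels, with 38-base reads and 12 PCR cycles per the labels' protocols. Per the submitters' processing notes, tools included bcl2fastq, trimming with Trim Galore 0.6.4, alignment with STAR 2.6.1d, read counting with featureCounts 1.6.4, and DESeq2, with build GRCm38.p6. The DESeq2 version, annotation release and strand setting are not given in the sources used here.

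The deposited value per library is a normalized signal: the authors divided each gene's count by a size factor. All values up to 10000 fell on whole reads (100%, tolerance 0.01), which gave back the reads. Per the file headers, other columns are the authors' log2 fold change and its error, the Wald statistic (a score), and the p-value, raw and adjusted. Of 55401 gene identifiers, 54349 matched GENCODE M21, and 987 rows have no gene name. Exon lengths are those the authors deposited.

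limma 3.58.1 (R 4.3.3) with the trend option was fitted to log2(normalized count + 2), with p-values adjusted over all 14273 genes. As alternatives, the recovered reads went into edgeR 4.0.16, DESeq2 1.42.0 and limma-voom. RPKM and CPM came from the recovered reads, and promoter matches from RefSeq windows. On simulated data with 14236 genes tested, limma recovered 54% of genes changed 2-fold and 86% of those changed 4-fold, with 9 false calls of 178. The simulated counts were drawn gene by gene without a deviating library, and the changed genes were taken from the more abundant ones. These rates therefore check the method and do not give the power for the members in these data.

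Named genes were all members, up to 4 genes of each list with groups apart by lowest p, defining or abundant markers, and the 3 genes most like Cpox, Ppox and Hmox1. Some genes so chosen are not reported here by name but stay in the counts. Marker lists covered erythroid, macrophage, neutrophil and monocyte, mast and basophil, megakaryocyte, early lymphoid, T and NK, and Lin- Kit+ cells. Members and lists were chosen with earlier results of these data known. Nothing says that the mice had separate donors, so p-values measure the spread between these mice. Read floors and the Poisson interval of the Alas2 reads cover counting error only, as PCR duplicates could not be recognized. The limma intervals measure the spread between these mice.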

Additional observations from a re-analysis of the deposited data

How the results depend on the processing

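No member passed an adjusted p of 0.05 under any of the 15 alternatives run (lowest limma adjusted p 0.1003, Cpox without Lym mouse 87). Of 120 recomputed member differences, 117 kept their sign. The exceptions were Alas1 without Lym mouse 62 (0.12) and without Lin- mouse 57 (0.13), within a range of -0.19 to 0.13, and Hmox1 without Lym mouse 62 (0.15), within a range of -0.80 to 0.15. The cause was not tested. Over all genes, calls went from 0 to 226 in DESeq2 (186 higher, 40 lower), 660 with library weights (426 higher, 234 lower), 5 without the filter on low values and 1 with a pseudocount of 8. Leaving out 1 mouse in turn gave 0 to 1366, where 1366 came without Lym mouse 87 and 1 without Lin- mouse 91. TMM scaling, edgeR, limma-voom, a pseudocount of 0.5 and a filter of 50 counts gave 0. For the 11 other named genes, 149 of 165 values stayed on their side and 16 passed the threshold, all in DESeq2, with library weights or without Lym mouse 87, and none turned sign. TMM moved the median of all genes from -0.010 to -0.013 on the log2 scale. No paired analysis was possible because the mouse numbers of the groups share none. Alas2, with 0 reads in 3 libraries, was tested here only without the filter, where it did not pass.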

Other observations

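T and NK cell markers summed to 0.75 to 2.67 CPM in Lym and 0 to 0.0884 CPM in Lin-. The summed CPM of mast cell and basophil markers was 1083, 343 and 102 in Lym (62, 63 and 87) and 50.03 to 78.2 in Lin-. Cpa3, a mast cell protease of that list, had normalized counts of 15971, 3966 and 343 in Lym and 196, 147 and 6.19 in Lin-. Megakaryocyte markers summed to 2.86 to 27.0 CPM in Lym and 1.35 to 2.41 CPM in Lin-. The list of Lin- Kit+ progenitor genes summed to 3423 to 5524 CPM in Lym and 3141 to 3396 CPM in Lin-. By sign 7 of its 7 genes were higher in Lym, 4 of them with groups apart (8.49% of all genes tested were apart and higher). None passed in limma, edgeR, limma-voom or DESeq2, and 3 passed in limma without Lym mouse 87 (9.57% of all genes).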
